A study of Mus musculus with 15 samples.

Results

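The tumour suppressor p53, encoded in the mouse by Trp53, and 9 of its target genes were followed in 15 RNA-seq libraries: Mdm2, Cdkn1a, Ccng1, Zmat3, Phlda3, Sesn2, Eda2r, Aen and Trp53inp1. The genes were taken by symbol from the 2 tables of raw counts, and all 10 were listed in both, among 20910 genes for the cultured mouse retinal pigment epithelium (mRPE) cells and 25038 genes for the RPE/choroid tissue. All 10 passed the filter on low counts in every comparison.

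p53 is a transcription factor that is made continuously and destroyed almost as fast. Its ubiquitin ligase Mdm2 binds it and sends it to the proteasome, and because Mdm2 is itself a p53 target, the pair form a feedback loop. DNA damage, nutrient stress or oncogene activity frees p53 from Mdm2, and the accumulated protein raises the transcripts of genes that halt the cell cycle, dampen growth signalling or start cell death. Most of this control acts on the protein, so the Trp53 transcript is not a measure of p53 activity, and the level of the target transcripts is the usual readout. Several of the targets also answer to other factors; Sesn2, for example, is raised by ATF4 and NRF2.

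The mRPE libraries came from a WT line (n = 4) and from 2 lines edited at Prom1, KO22 (n = 3) and KO26 (n = 2). All lines descend from RPE pooled from C57/BL6J mice aged 8 to 12 weeks and were immortalised with a lentivirus carrying HPV E6/E7, of which E6 directs p53 protein to degradation and E7 inactivates the retinoblastoma proteins. Every line discussed here therefore carried E6/E7. The edited lines also received Cas9 by lentivirus with puromycin selection, and a guide against exon 5 of Prom1 made the knockouts. The paper does not say whether the sequenced WT line carried Cas9 or received a scrambled guide. Both KO26 libraries were set aside as outliers in the study's own analysis, and they are the whole KO26 group here. KO22 and KO26 are 1 line each, so a difference between a line and WT cannot be told apart from a difference between any 2 lines. The tissue libraries were 3 WT and 3 labelled Prom1_KO, the latter from floxed Prom1 mice in which a tamoxifen-inducible RPE65-Cre deletes the gene in the RPE and not in photoreceptors. Mice aged 6 to 8 weeks were used in the project, but whether this holds for the tissue libraries, and whether the WT mice carried Cre or floxed alleles or received tamoxifen, is not given in the sources used here. The mRPE libraries of a line are called biological replicates, without saying whether they came from separate cultures, so their p-values measure the spread between libraries, which may be technical.

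Library names place the mRPE samples in 2 sequencing batches, 8995 (replicate 1 of each line) and 9262 (all other replicates), and the batch was a term in each mRPE fit. Totals were 8076188 to 27537863 counts in mRPE and 48154444 to 61766179 counts in tissue. Mitochondrial transcripts took 12.9% to 21.65% of the counts in mRPE and 64.9% to 84.2% in tissue, the highest in Prom1_KO replicate 3, which stood apart from the other 5 tissue libraries (TMM scaling factor 0.488 against 1.07 to 1.33). Values per library are given as CPM, the count relative to the library's total after TMM scaling within each table. Only 3 of 14 RPE markers were among the mRPE genes analysed here (Best1, Mitf and Pmel). Prom1 was not among those genes, although the paper reports it in WT mRPE by Western blot and qPCR. A gene missing there may thus be expressed, and the edit was not checked in these counts. The 3 RPE markers summed to 8.19 to 12.8 CPM in WT, 15.5 to 38.7 CPM in KO22 and 5.38 to 9.14 CPM in KO26. In KO22 only Mitf passed (log2 fold change 1.41, adjusted p = 0.0055, edgeR). Best1 (median 4.05 CPM, highest 17.4 CPM) and Pmel (-0.40) did not, nor did any of the 3 in KO26. The 3 of 4 fibroblast markers analysed summed to 5801 to 6961 CPM in WT, 2574 to 3969 CPM in KO22 and 7201 to 9322 CPM in KO26. Col1a1 was the largest part of that fibroblast sum in each line, and the 3 genes did not move together. In KO22, Col1a1 and Pdgfra fell (means 1529 against 4119 CPM and 487 against 1419 CPM in WT). Dcn did not pass there (1192 against 828 CPM). In KO26, Pdgfra fell (log2 fold change -0.78, adjusted p = 0.023, edgeR). Col1a1 (0.69) and Dcn (-0.32) did not pass in KO26. The summed level of 4 of 5 endothelial markers was 152 to 235 CPM in WT, 3.34 to 5.16 CPM in KO22 and 56.2 to 73.8 CPM in KO26. Kdr made up nearly all of it in WT and KO26 and fell in KO22 to 0.346 to 3.71 CPM, while Plvap rose (log2 fold change 1.82, adjusted p = 0.019, edgeR) and Pecam1 and Vwf did not pass. The part of these differences between the lines in the results for p53 genes was not tested. In bulk RNA, fewer cells of a type and less RNA per cell cannot be told apart.

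p53 binds DNA as a tetramer at a pair of 10-base half-sites, each with a 4-base core. A search of 3 kb on either side of the canonical transcript start of each gene, on both strands, for the p53 consensus (2 abutting half-sites with both cores running from C to G with only A or T between, and at most 2 mismatches in the flanking purines and pyrimidines) found a match at 3 of the 10 genes (30%), against 3.78% of 54641 annotated protein-coding and lncRNA genes and 3.89% of the 16757 of these that were tested in KO22. The 3 sites are shown because they are where p53 could reach these genes directly; they were read from GRCm39, 5′ to 3′, with the cores in capitals. The site of Cdkn1a lies at chr17:29309902-29309921 on the plus strand, 2827 bp upstream of the canonical start and just before the first annotated base of the gene, with 1 mismatch. The Ccng1 site lies in intron 1, 366 bp inside the gene, at chr11:40645763-40645782 on the minus strand with 1 mismatch, and the Zmat3 site in intron 1, 1419 bp inside the gene, at chr3:32418480-32418499 on the minus strand with 0 mismatches.
Cdkn1a: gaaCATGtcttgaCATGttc
Ccng1: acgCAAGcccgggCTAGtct
Zmat3: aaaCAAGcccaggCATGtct
A match is a description of the sequence and not evidence of binding, and the other 7 genes only lack these letters in this window.

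The first question was how p53 and its targets differed between KO22 and WT mRPE. Trp53 and 6 of the 9 targets fell in KO22, Trp53inp1 most, by 10.8-fold, followed by Ccng1, Eda2r, Zmat3 and Trp53 itself, then Mdm2 and Cdkn1a. The other 3 targets, Phlda3, Sesn2 and Aen, did not pass the test. No gene of the 10 rose. At an adjusted p below 0.05 (edgeR quasi-likelihood test over 20455 genes), 0 of 10 were higher and 7 lower, where 26.9% of all tested genes were higher and 26.1% lower. With the study's fold limit added (log2 fold change beyond 1.2), 0 were higher and 3 lower (Ccng1, Eda2r and Trp53inp1), where 11.4% of all genes were higher and 13.8% lower. The median log2 fold change of the 10 was -0.83, beside -0.03 for all genes tested.

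In 6 of the 10 genes, every KO22 library lay below every WT library (25.3% of all genes did so, and 24.8% lay above), and the other 4 overlapped. Compared inside each batch, 7 genes were lower in KO22 in both batches and 1, Aen, was higher in both (30% and 29% of all genes). Batch 8995 holds 1 library of each line, so that batch always separates them.

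The second question was whether the other Prom1-edited line did the same. In KO26, Cdkn1a and Sesn2 rose and the other 8 genes did not pass the test. At an adjusted p below 0.05 (edgeR, 20737 genes), 2 of 10 were higher and 0 lower, where 2.36% of all genes were higher and 1.13% lower. With the fold limit, 0 of 10 passed in either direction, where 1.21% of all genes were higher and 0.719% lower. An unadjusted p under 0.05 was found in 4 of 10 and in 4163 of all 20737 genes (edgeR). The 4 were Cdkn1a, Sesn2 and Phlda3, which were higher, and Trp53inp1, which was lower. DESeq2 passed 0 of 10 with the fold limit. The median log2 fold change was 0.26, beside 0.03 for all genes. Trp53, Cdkn1a and Sesn2 were higher in both KO26 libraries than in all 4 WT libraries (11.9% of all genes were higher and 12.8% lower in this way), and inside each batch 5 of 10 were higher in both and 1 lower in both (24.5% and 22.4% of all genes).

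The 2 edited lines were then compared directly. Of the members, 9 of 10 genes were lower in KO22 than in KO26 and 0 higher at an adjusted p below 0.05, where 18.1% of all genes were lower and 16.3% higher (edgeR). With the fold limit, 4 were lower (Trp53inp1, Eda2r, Ccng1 and Trp53) and 0 higher, where 10.7% of all genes were lower and 7.56% higher. In those 9 genes the 3 KO22 libraries all lay below both KO26 libraries (24.6% of all genes, with 23.4% above), and also in each batch (31% of all genes, with 28.2% above). The median log2 fold change of the 10 was -1.14. Aen did not pass the test. The 3 comparisons share libraries with each other, so they are not independent, and the values of each are given side by side.

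**Figure D1:**
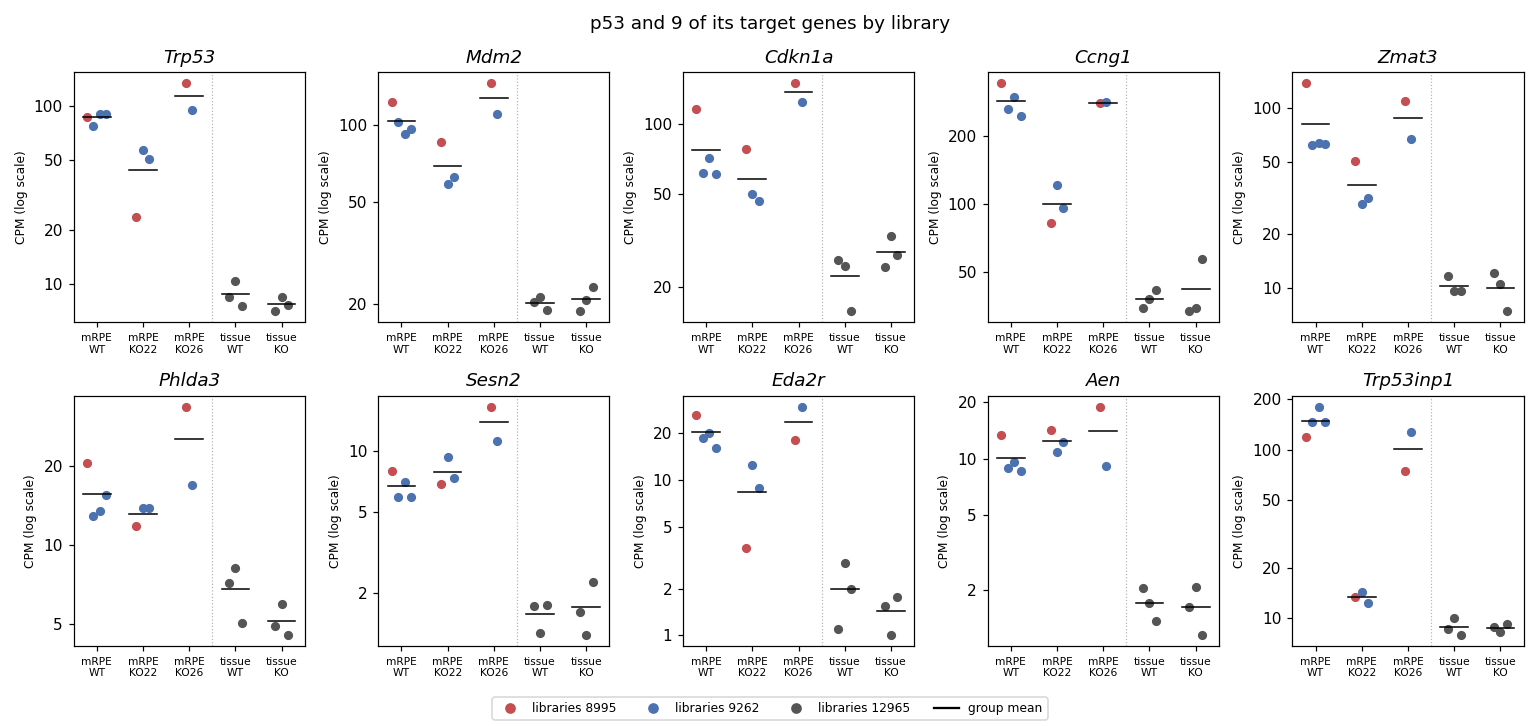
CPM of each gene in every library, on a log axis with its own range in each panel; points are libraries coloured by library name prefix, and short lines are group means. Trp53inp1 sits between 12.3 and 14.3 CPM in the 3 KO22 libraries and at 74.5 CPM or more in all WT and KO26 libraries; mRPE and tissue were scaled separately, so levels should not be compared across the dotted line.

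Trp53 (ENSMUSG00000059552, chr11:69469669-69482701, plus strand) had 87.4 CPM in WT replicate 1 and 77.7, 90.8 and 89.9 CPM in WT replicates 2 to 4. KO22 had 23.9, 56.3 and 50.05 CPM, and KO26 135 and 94.96 CPM. All KO22 libraries lay below, and both KO26 libraries above, every WT library, and the lowest value was that of KO22 in batch 8995. Trp53 fell by 1.02 on the log2 scale in KO22 (SE 0.21, adjusted p = 0.0026, edgeR). In batch 8995 KO22 minus WT was -1.85 in log2(CPM + 0.5), and in batch 9262 it was -0.69. Without KO22 replicate 1 the log2 fold change was -0.68, and without KO22 replicate 2 it was -1.24, past the fold limit. In KO26 it was 0.48 (95% interval -0.14 to 1.10, adjusted p = 0.36, edgeR), and KO22 against KO26 gave -1.49 (SE 0.30, adjusted p = 0.0035, edgeR). The latter was inside the fold limit without KO22 replicate 1 (-0.98) or KO26 replicate 1 (-1.03) and in batch 9262 alone (-0.85), with an adjusted p below 0.05 each time. Exons of Trp53 overlap those of Wrap53 on the other strand over 263 bp. The strand setting behind the deposited counts is not given in the sources used here, so reads from that stretch may be assigned to either gene. Wrap53 had 3.15 to 3.26 CPM in WT and 3.03 to 6.56 CPM in KO22, where it rose by 0.65 (adjusted p = 0.048, edgeR).

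Mdm2 (ENSMUSG00000020184, chr10:117524780-117546730, minus strand), the ubiquitin ligase of p53, had 123, 103, 91.6 and 96.2 CPM in WT. It had 85.5, 58.6 and 62.5 CPM in KO22 and 145 and 109 CPM in KO26. KO22 lay below WT in every library, and KO26 overlapped WT but lay above it inside each batch. Mdm2 fell by 0.63 on the log2 scale in KO22, with the narrowest interval of the 10 genes (95% interval -0.86 to -0.40, adjusted p = 0.00072, edgeR), and the batches gave -0.52 and -0.67. KO26 gave 0.19 (95% interval -0.08 to 0.46, adjusted p = 0.41, edgeR), and KO22 against KO26 gave -0.82 (SE 0.13, adjusted p = 0.00075, edgeR).

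Cdkn1a and Ccng1 act on the cell cycle. Cdkn1a (ENSMUSG00000023067, chr17:29309936-29319701, plus strand) encodes p21, the inhibitor of cyclin-dependent kinases through which p53 arrests cells. Its level was 116, 61.8, 71.6 and 61.2 CPM in WT. In KO22 it was 78.0, 50.1 and 46.7 CPM, and in KO26 150.5 and 125 CPM. Replicate 1 was the highest of its line each time, so KO22 and WT overlapped over all libraries but not inside a batch, where KO22 minus WT was -0.57 and -0.42 in log2(CPM + 0.5). Cdkn1a fell by 0.47 in KO22 (SE 0.11, adjusted p = 0.0053, edgeR), a call that was lost without the batch term (adjusted p = 0.22, edgeR). It rose by 0.71 in KO26 (SE 0.15, adjusted p = 0.029, edgeR), with within-batch differences of 0.37 and 0.94, and KO22 against KO26 gave -1.17 (SE 0.16, adjusted p = 0.00031, edgeR). The KO26 call was lost without KO26 replicate 2 (log2 fold change 0.43, adjusted p = 0.15, edgeR), without WT replicate 2, 3 or 4 (adjusted p = 0.12, 0.080 and 0.096, edgeR), without KO22 replicate 2, which enters the fit through the shared spread (adjusted p = 0.066, edgeR), and without the batch term (adjusted p = 0.19, edgeR).

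Ccng1 (ENSMUSG00000020326, chr11:40639377-40646148, minus strand) encodes cyclin G1, which brings the phosphatase PP2A to Mdm2. WT had 341, 262, 296 and 245 CPM and KO22 82.2, 121 and 95.9 CPM. KO26 had 278 and 282 CPM, inside the WT range. All KO22 libraries lay far below the lowest WT value. Ccng1 fell by 1.52 on the log2 scale in KO22 (SE 0.17, adjusted p = 8.1e-05, edgeR), from -2.05 in batch 8995 and -1.30 in batch 9262. KO26 gave -0.03 (95% interval -0.44 to 0.38, adjusted p = 0.94, edgeR), and KO22 against KO26 gave -1.49 (SE 0.20, adjusted p = 0.00028, edgeR). Its exons share 114 bp with Nudcd2 on the other strand, which rose by 0.76 in KO22 (adjusted p = 0.014, edgeR).

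Zmat3 and Phlda3 act on RNA and on survival signalling. Zmat3 (ENSMUSG00000027663, chr3:32388941-32420163, minus strand) encodes a zinc finger protein that binds RNA. In WT it had 138 CPM in replicate 1 and 62.6, 64.2 and 63.7 CPM in the others, in KO22 50.7, 29.5 and 31.8 CPM, and in KO26 110.2 and 67.1 CPM. The batch split was wide, and within the batches KO22 minus WT was -1.43 and -1.04 in log2(CPM + 0.5). Zmat3 fell by 1.17 in KO22 (SE 0.12, adjusted p = 3.7e-05, edgeR), just inside the fold limit of 1.2, which it passed without WT replicate 2, KO22 replicate 2 (-1.22) or KO22 replicate 3 (-1.29). KO26 gave -0.07 (95% interval -0.37 to 0.24, adjusted p = 0.82, edgeR), and KO22 against KO26 gave -1.10 (SE 0.14, adjusted p = 0.00027, edgeR).

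Phlda3 (ENSMUSG00000041801, chr1:135693809-135697686, plus strand) encodes a pleckstrin homology protein that holds back Akt. Its levels were 20.7, 12.96, 13.45 and 15.5 CPM in WT and 11.8, 13.9 and 13.8 CPM in KO22. The groups overlapped, and the difference was -0.78 in batch 8995 and -0.01 in batch 9262. Phlda3 did not pass in KO22 (log2 fold change -0.24, 95% interval -0.65 to 0.16, adjusted p = 0.28, edgeR). KO26 had 33.8 and 17.0 CPM, and its log2 fold change was 0.57 (95% interval 0.03 to 1.10, adjusted p = 0.22, edgeR), which passed only without KO22 replicate 1 (0.48, adjusted p = 0.036, edgeR). KO22 was lower than KO26 by the test (log2 fold change -0.80, SE 0.26, adjusted p = 0.033, edgeR), but not without KO22 replicate 1 (-0.44), KO26 replicate 1 (-0.43), or WT replicate 3 or 4 (adjusted p = 0.054 and 0.056, edgeR), nor in batch 9262 alone (-0.31) or in a fit of the 2 edited lines alone (adjusted p = 0.13, edgeR).

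Sesn2 (ENSMUSG00000028893, chr4:132219335-132237815, minus strand) encodes sestrin 2, which restrains mTORC1 when amino acids are short. WT had 7.95, 5.96, 7.07 and 5.96 CPM, KO22 6.92, 9.35 and 7.37 CPM, and KO26 16.5 and 11.2 CPM. KO26 stood above all other libraries, while KO22 and WT overlapped. Sesn2 rose by 0.99 in KO26 (SE 0.23, adjusted p = 0.045, edgeR). That call was close to the limit and was lost without any WT library, without KO26 replicate 1 or without KO22 replicate 2 or 3 (adjusted p = 0.061 to 0.33, edgeR), and without the batch term (adjusted p = 0.071, edgeR). KO22 gave 0.23 (95% interval -0.21 to 0.67, adjusted p = 0.35, edgeR), with opposite signs in the batches (-0.19 and 0.37); it passed the adjusted p without KO22 replicate 1 (0.44), without WT replicate 1 (0.41) and in batch 9262 alone (0.43). KO22 against KO26 gave -0.76 (SE 0.25, adjusted p = 0.036, edgeR), which was lost without KO22 replicate 1 or 3, KO26 replicate 1 or WT replicate 2, 3 or 4 (adjusted p = 0.051 to 0.22, edgeR) and in a fit of the 2 edited lines alone (adjusted p = 0.13, edgeR).

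Eda2r, Aen and Trp53inp1 are linked to cell death. Eda2r (ENSMUSG00000034457, chrX:96320270-96420847, minus strand) encodes a receptor of the TNF receptor family for ectodysplasin A2. It had 26.4, 18.5, 20.0 and 16.1 CPM in WT, 3.63, 12.5 and 8.92 CPM in KO22, and 18.05 and 29.5 CPM in KO26. KO22 lay below all other libraries. Eda2r fell by 1.29 in KO22 (SE 0.35, adjusted p = 0.012, edgeR). Most of that came from batch 8995 (-2.70, against -0.75 in batch 9262), and the fold limit was no longer passed without KO22 replicate 1 (-0.73) or WT replicate 1 (-0.75), although the adjusted p stayed below 0.05 in both. KO26 gave 0.24 (95% interval -0.57 to 1.05, adjusted p = 0.75, edgeR) with opposite signs in the batches. KO22 against KO26 gave -1.56 (SE 0.40, adjusted p = 0.012, edgeR), and -1.24 without KO26 replicate 2 (adjusted p = 0.14, edgeR).

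Aen (ENSMUSG00000030609, chr7:78545602-78560957, plus strand) encodes a nuclease that p53 induces in apoptosis. WT had 13.3, 8.91, 9.62 and 8.61 CPM, KO22 14.2, 10.8 and 12.2 CPM, and KO26 18.8 and 9.14 CPM. All 3 lines overlapped. Aen did not pass in KO22 (log2 fold change 0.27, 95% interval -0.06 to 0.60, adjusted p = 0.16, edgeR), in KO26 (0.28, 95% interval -0.17 to 0.74, adjusted p = 0.47, edgeR) or between the lines (-0.02, 95% interval -0.50 to 0.46, adjusted p = 0.96, edgeR).

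Trp53inp1 (ENSMUSG00000028211, chr4:11156412-11175230, plus strand) encodes a stress protein of nuclear bodies that promotes p53-dependent cell death and autophagy. Its level was 118, 145.5, 179 and 146.5 CPM in WT. In KO22 it was 13.4, 14.3 and 12.3 CPM, and in KO26 74.5 and 127 CPM. The KO22 libraries lay close together and far below all others. Trp53inp1 fell by 3.44 on the log2 scale in KO22, or 10.8-fold (SE 0.15, adjusted p = 6.2e-07, edgeR), and the batches gave -3.09 and -3.51. KO26 overlapped WT and gave -0.48 (95% interval -0.87 to -0.08, adjusted p = 0.17, edgeR), lower inside both batches (-0.66 and -0.29). KO22 against KO26 gave -2.94 (SE 0.19, adjusted p = 3.2e-06, edgeR). Leaving out each library in turn moved the KO22 value only between -3.56 and -3.36.

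**Figure D2:**
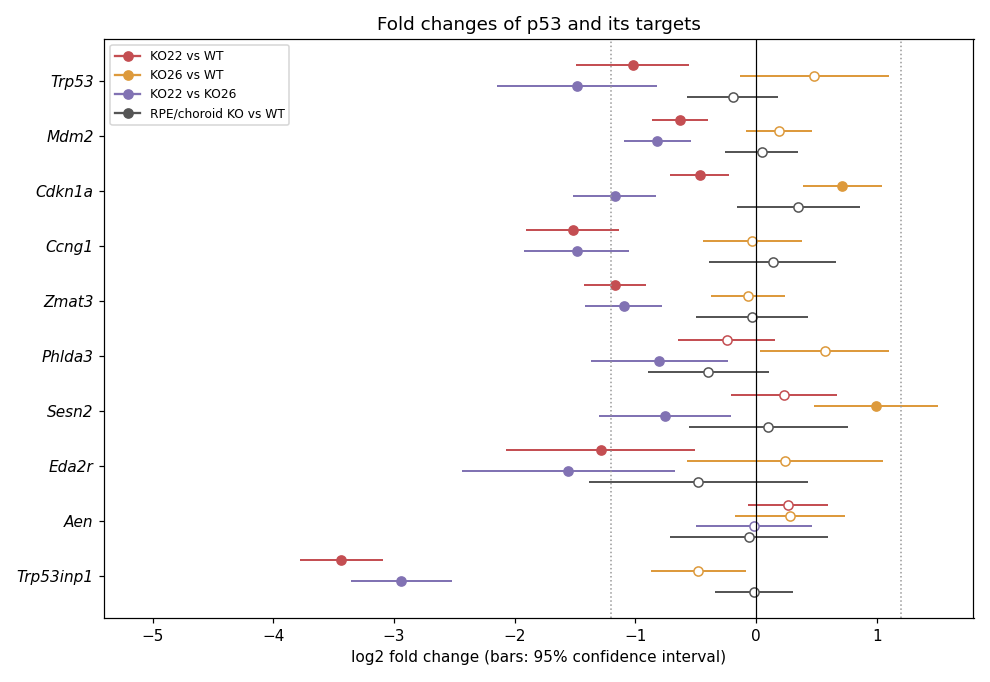
Log2 fold change of each gene in the 4 comparisons with its 95% confidence interval; filled points have an adjusted p below 0.05 (edgeR), and dotted lines mark the fold limit of 1.2. Trp53inp1 is at -3.44 in KO22 against WT, and all 10 genes in tissue have open points.

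**Figure D3:**
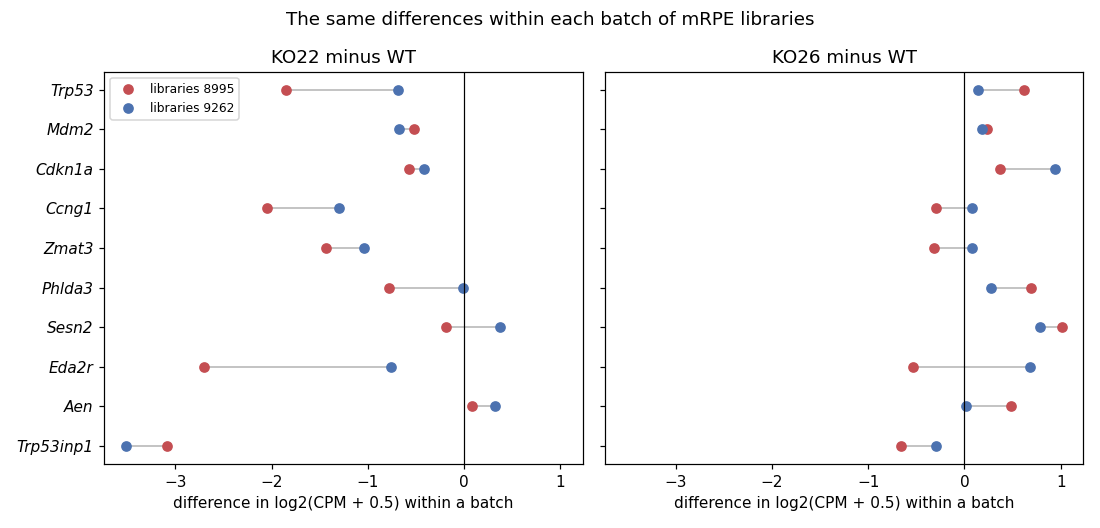
Difference of each line from WT in log2(CPM + 0.5), taken separately in batch 8995 (1 library of each line) and batch 9262 (means of libraries). Trp53, Eda2r and Ccng1 are further below WT in batch 8995 in KO22, at -1.85, -2.70 and -2.05, than in batch 9262, at -0.69, -0.75 and -1.30.

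The members did not share 1 profile. Across the 9 mRPE libraries, with each gene centred on its own mean log2 CPM, the member nearest to Trp53 was Ccng1 (root mean square difference 0.35), Mdm2 and Cdkn1a were nearest to each other (0.29), as were Phlda3 and Sesn2 (0.27), and Ccng1 and Eda2r (0.34). For the other 9 genes the farthest member was Trp53inp1 in each case (0.88 to 1.71). Over all tested genes, those most like Trp53 were Btbd2, Mmab and Ring1 (0.12 to 0.14, median of all genes 0.78), and those most like Mdm2 were Wbp1l, Rbms2 and Atp6v1e1 (0.09 to 0.10, median 0.58). For Cdkn1a they were Col3a1, Dino and Copz2 (0.15 to 0.19, median 0.72). Dino is transcribed from the strand opposite Cdkn1a and its exons overlap those of Cdkn1a over 504 bp, so without the strand setting their reads cannot be told apart. Dino had 7.95 to 14.8 CPM in WT, 6.83 to 11.3 CPM in KO22 and 15.3 to 22.7 CPM in KO26.

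Levels can be compared between the genes only per length, here as mean CPM per kb of annotated exons. In WT mRPE, Ccng1 was highest at 65.0 ± 9.65 CPM per kb (SD, n = 4), then Trp53inp1 at 20.0 ± 3.38. Mdm2 (13.4 ± 1.79), Cdkn1a (12.9 ± 4.31) and Trp53 (11.7 ± 0.813) followed within their spread of each other, as did Zmat3 (7.17 ± 3.24) and Phlda3 (6.04 ± 1.36). Eda2r (2.703 ± 0.584), Sesn2 (1.48 ± 0.212) and Aen (0.891 ± 0.191) were lowest. In KO22 Ccng1 was again first at 22.7 ± 4.48 CPM per kb (SD, n = 3), and Trp53inp1 stood among the lowest at 1.81 ± 0.137, beside Sesn2 at 1.74 ± 0.285.

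KO22 libraries differ from WT over whole chromosomes: the median log2 fold change was -0.54 over 967 other tested genes of chromosome 10 and 0.26 over 1070 of chromosome 4. The members were therefore set beside their neighbours. Mdm2, at -0.63, lay at the median of the 62 tested genes within 5 Mb of it (-0.61). Trp53inp1, at -3.44, lay below the 10th percentile of its 53 neighbours (-2.36), whose median was 0.13, and Zmat3, at -1.17, below the 10th percentile of its 66 (-0.69). Eda2r, at -1.29, was just below the 10th percentile of its 58 neighbours (-1.28), and Trp53, Cdkn1a and Ccng1 were below the medians of theirs (0.08, 0.04 and 0.01) but inside the range from the 10th to the 90th percentile. Whether chromosome number or position has a part in these values was not tested.

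**Figure D4:**
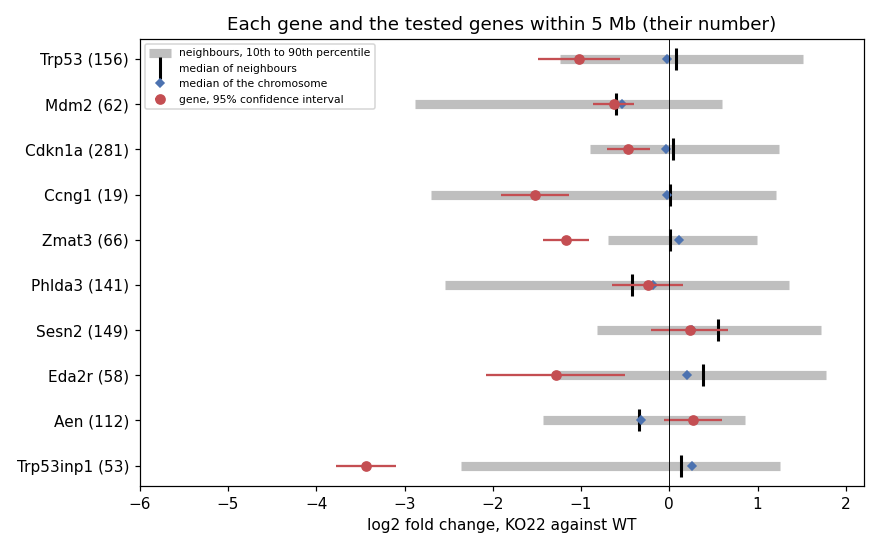
Log2 fold change of each gene in KO22 against WT with its 95% confidence interval (red), the median and the 10th to 90th percentile of the other tested genes within 5 Mb (black mark and grey bar, their number in brackets) and the median of the chromosome (blue). Mdm2 at -0.63 coincides with its neighbours' median of -0.61, whereas Trp53inp1 and Zmat3, and by a small margin Eda2r, lie below their neighbours' grey bar.

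Beyond the 10 genes, 38 other p53 targets were examined, and in KO22 more of them were lower than higher: 19 fell and 6 rose at an adjusted p below 0.05 (all genes 26.1% and 26.9%), and 9 fell and 3 rose with the fold limit (edgeR; all genes 13.8% and 11.4%), with a median log2 fold change of -0.42 (all genes -0.03). The 4 largest falls were in Perp, an apoptosis effector and desmosome protein, Cyfip2, a partner of the WAVE actin complex, Dcxr, a carbonyl and xylulose reductase, and Sesn1, the relative of Sesn2. Perp had 315 counts in the 4 WT libraries and 2 in the 3 KO22 libraries, a ratio of 111 per scaled library total (exact 95% interval 30.6 to 924, counting error only). Cyfip2 fell by 4.18 on the log2 scale (SE 0.66, adjusted p = 0.00058, edgeR) with 0, 6 and 0 counts in KO22. Dcxr fell by 2.21 (SE 0.24, adjusted p = 5.7e-05, edgeR). Sesn1 fell by 2.14 (SE 0.11, adjusted p = 9.9e-07, edgeR), from 59.7 to 69.8 CPM in WT to 14.7 to 15.1 CPM in KO22, with 63.4 and 56.1 CPM in KO26. The 3 targets that rose past both limits, Gtse1 (2.12, adjusted p = 0.00016, edgeR), Ckap2 (2.12, adjusted p = 2.1e-06, edgeR) and Plk3 (1.58, adjusted p = 0.00087, edgeR), are a microtubule protein that binds p53, a spindle protein and a stress kinase.

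In KO26, 3 of these 38 targets rose and 0 fell at an adjusted p below 0.05 (all genes 2.36% and 1.13%), and with the fold limit (all genes 1.21% higher) Gtse1 (1.47, adjusted p = 0.034, edgeR) and Tap1, a peptide transporter of MHC class I (1.302, adjusted p = 0.015, edgeR), rose. Their median was 0.31. Between the lines, 15 were lower and 2 higher in KO22 (all genes 18.1% and 16.3%), and 8 lower and 1 higher with the fold limit (all genes 10.7% and 7.56%), with a median of -0.65. The largest of these were Perp (2 counts against 196, ratio 147, exact 95% interval 40.1 to 1220), Cyfip2 (-3.25, adjusted p = 0.0092, edgeR), Dcxr (-2.44, adjusted p = 8.2e-05, edgeR) and Xpc, a damage sensor of nucleotide excision repair (-2.08, adjusted p = 6.3e-05, edgeR), and Plk3 was higher (1.60, adjusted p = 0.0082, edgeR). The search described for the members found a p53 site at 12 of the 38 (31.6%).

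Of 17 regulators of p53, 6 rose and 3 fell in KO22 at an adjusted p below 0.05, near the shares over all genes (26.9% and 26.1%), and 4 rose and 1 fell with the fold limit (edgeR; all genes 11.4% and 13.8%), with a median of 0.26. Mdm4, the Mdm2 relative that blocks transactivation by p53, fell by 1.34 (SE 0.13, adjusted p = 3.0e-05, edgeR), from 420 to 512 CPM in WT to 133 to 226 CPM in KO22, while KO26 had 342 and 524 CPM. Cdkn2a, whose 2 products p16INK4a and p19ARF hold back CDK4/6 and Mdm2, had 1 count in the 4 WT libraries and 2 in the 2 KO26 libraries against 124 in the 3 KO22 libraries, a ratio of 175 to WT (exact 95% interval 30.9 to 6980) and of 41.4 to KO26 (11.2 to 346). Gene counts do not separate its 2 products. Chek1, the replication checkpoint kinase (2.23, adjusted p = 3.5e-05, edgeR), Hipk2, a kinase that phosphorylates p53 (1.85, adjusted p = 3.9e-06, edgeR), and Usp7, the deubiquitinase of Mdm2 and p53 (1.40, adjusted p = 1.4e-05, edgeR), were the other 3. In KO26, 0 of the 17 passed the adjusted p (edgeR). An unadjusted p under 0.05 was found in 4 of them and in 4163 of all 20737 genes (edgeR). Between the lines, Cdkn2a, Hipk2 (2.00, adjusted p = 1.5e-05, edgeR) and Chek1 (1.52, adjusted p = 0.0018, edgeR) were higher in KO22 with the fold limit and Mdm4 (-1.29, adjusted p = 0.00015, edgeR) and the p53 relative Trp63 (-1.497, adjusted p = 0.015, edgeR) lower; at the adjusted p alone 6 were higher and 2 lower (all genes 16.3% and 18.1%), with a median of 0.41. A p53 site was found at 0 of the 17.

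p21 also acts on transcription: it keeps the retinoblastoma family members p107 and p130 in the DREAM complex, which represses genes of replication and mitosis. HPV E7, present in all these lines, disrupts that complex. Of 18 DREAM targets, 17 rose in KO22 with the fold limit (edgeR; 11.4% of all genes), all but E2f1, and the median was 2.30. Like the other lists, this list was chosen with earlier results of these data known. The paper had already reported E2F target and G2M checkpoint gene sets as upregulated in Prom1-KO cells. The shares over all genes therefore describe the list and do not test it. Mcm5, a subunit of the replicative helicase, rose by 3.18 (SE 0.36, adjusted p = 8.5e-05, edgeR), Mybl2, an activator of mitotic genes, by 3.08 (SE 0.29, adjusted p = 2.9e-05, edgeR), Cdc20, an activator of the anaphase-promoting complex, by 2.78 (SE 0.26, adjusted p = 2.5e-05, edgeR), and the kinase Aurka by 2.64 (SE 0.23, adjusted p = 1.6e-05, edgeR). In KO26, 10 of the 18 rose at an adjusted p below 0.05 (2.36% of all genes) and 8 with the fold limit (1.21% of all genes, list median 1.305), led by Aurkb (1.82, adjusted p = 0.0080, edgeR), Aurka (1.59, adjusted p = 0.022, edgeR), the checkpoint kinase Bub1 (1.55, adjusted p = 0.0083, edgeR) and Cdc20 (1.45, adjusted p = 0.043, edgeR). Between the lines 10 were higher in KO22 (16.3% of all genes) and 6 with the fold limit (7.56% of all genes, list median 0.93), with Mcm5 (1.7998, adjusted p = 0.025, edgeR), Mybl2 (1.62, adjusted p = 0.012, edgeR), Ccnb2, a mitotic cyclin (1.37, adjusted p = 0.0023, edgeR), and Cdc20 (1.37, adjusted p = 0.016, edgeR) the largest. A p53 site was found at 5.56% of the DREAM targets.

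**Figure D5:**
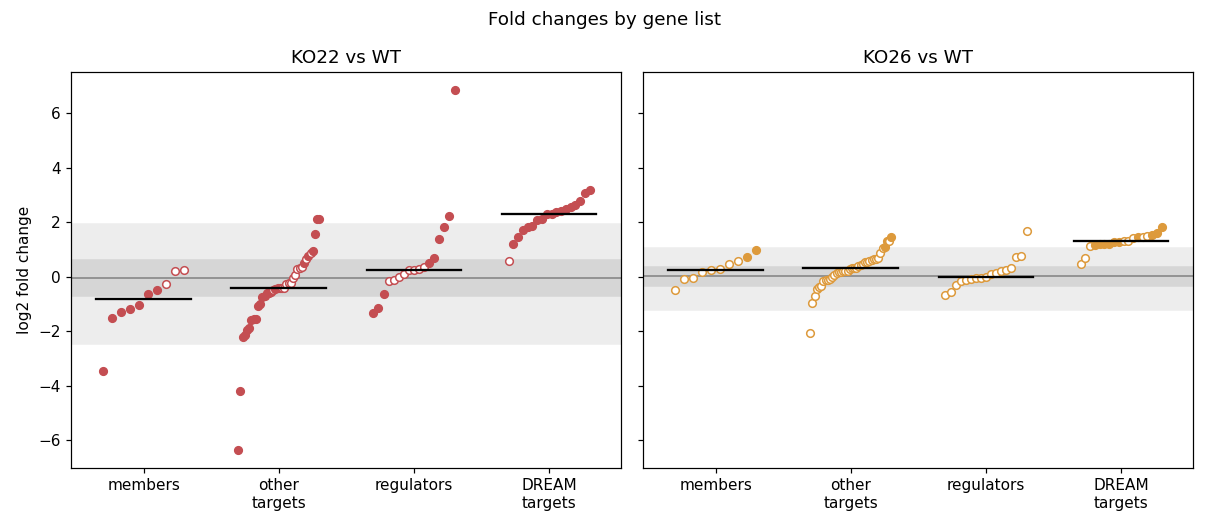
Log2 fold change of each gene of the 4 lists in KO22 and in KO26 against WT; filled points have an adjusted p below 0.05 (edgeR), black lines are list medians, and grey bands span the 5th to 95th and the 25th to 75th percentile of all tested genes. In KO22 the medians are -0.83 for the 10 members, -0.42 for the other targets and 2.30 for the DREAM targets; in KO26 they are 0.26, 0.31 and 1.305. Fitted values of Cdkn2a (highest regulator) and Perp (lowest target) in KO22 rest on 1 to 2 counts in a group. The lists were chosen with earlier results of these data known.

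The last question was whether p53 genes differed in RPE/choroid tissue between WT and the libraries labelled Prom1_KO. No difference passed the test: 0 of 10 passed an adjusted p of 0.05 (edgeR), where 0% of all 24926 tested genes were higher and 0.193% lower. DESeq2 also passed 0. An unadjusted p under 0.05 was found in 0 of 10 and in 2068 of all 24926 genes (edgeR). The 2 groups overlapped in all 10 genes (6.71% of all genes were higher and 7.89% lower without overlap). The median log2 fold change was -0.03, and 95% intervals reached at most 0.86 upwards (Cdkn1a) and -1.39 downwards (Eda2r). These are the widest bounds of the 10, and other intervals were narrower, such as -0.34 to 0.31 for Trp53inp1. Prom1, the targeted gene, had 48.7, 49.6 and 53.3 CPM in WT and 49.9, 48.1 and 35.5 CPM in the labelled knockouts (log2 fold change -0.18, 95% interval -0.55 to 0.19, adjusted p = 0.82, edgeR). Photoreceptors also express Prom1, so the targeted gene does not check the labels of mixed tissue. Of 14 RPE markers, 3 fell (Rpe65, Lrat and Rgr, edgeR). Mean CPM in WT and the labelled knockouts were 257 and 3.86 for Rpe65, 146 and 13.6 for Lrat, and 697 and 18.6 for Rgr. The other 11 did not pass, of which Tyr (0.31) and Dct (0.37) had positive log2 fold changes. The summed level of the 14 was 2622 to 3580 CPM in WT and 1288 to 1465 CPM in the labelled knockouts. That sum includes the pigment genes Dct (means 459 and 593 CPM) and Tyrp1 (345 and 310 CPM), so it shows less of the falls above. Endothelial markers summed to 63.1 to 132 CPM and 33.4 to 58.0 CPM. All 5 had negative log2 fold changes, and 0 of 5 passed the adjusted p (edgeR). Photoreceptor markers varied widely inside both groups, at 38.4 to 1093 CPM in WT and 18.6 to 520 CPM in the labelled knockouts. Of these, 0 of 6 passed (edgeR). The part of these differences in the values of p53 genes was not tested.

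Trp53 had 8.43, 10.3 and 7.49 CPM in WT tissue and 7.01, 8.34 and 7.56 CPM in the labelled knockouts (log2 fold change -0.19, 95% interval -0.57 to 0.18, adjusted p = 0.81, edgeR). Mdm2 had 20.5, 21.4 and 19.1 against 18.9, 20.8 and 23.3 CPM (0.05, 95% interval -0.26 to 0.35, adjusted p = 0.96, edgeR). The groups overlapped in both. Cdkn1a had 26.1, 24.6 and 15.7 against 24.3, 33.1 and 27.3 CPM (0.35, 95% interval -0.16 to 0.86, adjusted p = 0.74, edgeR). Ccng1 had 34.4, 37.9 and 41.5 against 33.5, 34.5 and 57.1 CPM (0.14, 95% interval -0.39 to 0.66, adjusted p = 0.92, edgeR). The highest Ccng1 value was in Prom1_KO replicate 3, the library that stood apart, and without it the log2 fold change was -0.17.

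Zmat3 had 11.7, 9.66 and 9.69 CPM in WT tissue and 12.2, 10.6 and 7.50 CPM in the labelled knockouts (-0.04). Phlda3 had 7.15, 8.17 and 5.01 against 4.91, 5.96 and 4.54 CPM (-0.40, 95% interval -0.90 to 0.10, adjusted p = 0.70, edgeR). Sesn2 was low, at 1.73, 1.27 and 1.73 against 1.61, 1.24 and 2.26 CPM (0.10). Eda2r, with 53 to 172 counts a library, had 1.11, 2.91 and 1.98 against 1.55, 1.01 and 1.76 CPM and the widest interval (-0.48, 95% interval -1.39 to 0.43, adjusted p = 0.81, edgeR). Aen, with 35 to 146 counts, had 2.05, 1.71 and 1.37 against 1.63, 2.09 and 1.16 CPM (-0.06). Trp53inp1, which was far lower in KO22 cells, did not pass the test in tissue. It had 8.70, 10.1 and 8.02 CPM in WT and 8.89, 8.29 and 9.29 CPM in the labelled knockouts (-0.02, 95% interval -0.34 to 0.31, adjusted p = 0.99, edgeR).

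Per kb of exon, Ccng1 was the highest member in tissue as in culture (8.63 ± 0.806 CPM per kb, SD, n = 3, in WT), and Aen the lowest (0.150 ± 0.0299). Trp53inp1 (1.22 ± 0.145) and Trp53 (1.19 ± 0.195) did not differ beyond their spread, nor did Mdm2 (2.64 ± 0.153) and Phlda3 (2.62 ± 0.622). Of the other lists, 0 of 38 targets, 0 of 17 regulators and 0 of 18 DREAM targets passed the adjusted p in tissue (edgeR). An unadjusted p under 0.05 was found in 5, 0 and 0 of them and in 2068 of all 24926 genes (edgeR). The list medians were 0.03, 0.07 and 0.22.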

How the data were processed

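Poly(A) RNA of 9 mRPE and 6 RPE/choroid libraries was sequenced. Per the study's methods and processing notes, the authors trimmed reads with Trim Galore 0.6.7, aligned them to mm39 with STAR and deposited gene counts, 1 table for culture and 1 for tissue; the strand column used is not given in the sources used here, and the kit is described as stranded. The deposited normalized tables were not used.

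A gene entered a test where 3 or more libraries held 5 or more of its counts. The test was edgeR 4.0.16's quasi-likelihood test (glmQLFit and glmQLFTest, TMM scaling, R 4.3.3) with Benjamini-Hochberg adjustment over all tested genes. KO22 was compared with WT over 7 libraries, KO26 with WT and with KO22 over all 9, with batch as a term, and tissue over 6. Calls used an adjusted p below 0.05, alone or with an absolute log2 fold change over 1.2. CPM are on the TMM scale; within-batch differences used a pseudocount of 0.5 CPM. Single values rest on at least 35 counts for every member. Confidence intervals are 95%. Annotation and sequence came from GRCm39, the build of the files, with GENCODE gene models. Scripts were tested on simulated data. The alternatives were DESeq2 1.42.0 and its size factors, other filters, no fold limit, no batch term, 1 batch alone, other sets of libraries in the fit, and leaving out each library.

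The named genes are the 10 members, at most 4 genes of each direction with the largest change among those called in each other list and comparison, and the 3 genes nearest to Trp53, Mdm2 and Cdkn1a. The members and lists were chosen with earlier results of these data known. Marker lists for leukocytes, muscle and melanocytes were also read, and none had a called gene in any comparison.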

Additional observations from a re-analysis of the deposited data

Results flagged for a closer look

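In the WT mRPE group, the Zmat3 level of replicate 1 (batch 8995) was 138 CPM, farther from the other 3 WT libraries (62.6 to 64.2 CPM) than Dixon's limit for 4 samples allows; chance flags about 1 in 20 groups. The KO22 and KO26 libraries of batch 8995 were also the highest of their lines for Zmat3, at 50.7 and 110.2 CPM. Without WT replicate 1, the log2 fold change of Zmat3 in KO22 was -1.06.

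The effect of the 2 edited lines differed for 9 genes by the direct test of KO22 against KO26 (edgeR, adjusted p below 0.05). The log2 differences, KO22 minus KO26, were -2.94 for Trp53inp1, -1.56 for Eda2r, -1.49 for Ccng1, -1.49 for Trp53, -1.17 for Cdkn1a, -1.10 for Zmat3, -0.82 for Mdm2, -0.80 for Phlda3 and -0.76 for Sesn2.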

How the results depend on the processing

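The 7 members that fell in KO22 kept their direction under every alternative run. The count past both limits, 3 in KO22, was 7 without the fold limit and 2 to 5 when 1 library was left out (5 without KO22 replicate 2); in KO26 it was 0, 2 without the fold limit and 0 to 1 with 1 library left out (1, Sesn2, without KO26 replicate 2); between the lines it was 4, 9 without the fold limit and 2 to 5 with 1 library left out (2 without KO22 replicate 1). In tissue it was 0 under every alternative run.

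Signs turned only in values that had not passed the test, and the cause was not tested. For KO26 against WT, Zmat3 became 0.11 without the batch term and 0.088 in batch 9262 alone, with -0.19 to 0.081 over the fits that left out 1 library, and Ccng1 became 0.087 in batch 9262 alone (-0.10 to 0.19 with 1 library left out). Eda2r ranged from -0.047 to 0.93 and Aen from -0.016 to 0.58. Between the lines, Aen became 0.30 in batch 9262 alone and ranged from -0.31 to 0.28. In tissue, the ranges with 1 library left out were -0.0495 to 0.11 for Mdm2, -0.17 to 0.26 for Ccng1, -0.20 to 0.12 for Zmat3, -0.16 to 0.29 for Sesn2, -0.28 to 0.11 for Aen and -0.091 to 0.077 for Trp53inp1.

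No paired analysis was possible because the labels give no replicate numbers; those used here follow accession order within a group and only name a library. Depth was not the main limit for any member in mRPE, where the smallest count was 42; in tissue Aen and Eda2r rest on the fewest counts. KO26 has 2 libraries and 1 in each batch, so its spread was taken from all 9.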
